A study of Mus musculus with 16 samples.

Results

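Acvrl1, Smad6, Id1 and Gata2 were followed in bulk RNA libraries of alveolar macrophages, phagocytes that live in the air spaces of the lung, from mice. These 4 of the 7946 genes in the deposited table were chosen from their measured values in the same libraries, since all were low after inhaled lipopolysaccharide (LPS) and Gata2 was also high in p16-positive cells. Differences between groups in these 4 genes are therefore descriptions and carry no test. All mice were C57BL/6 (C57BL6 in the labels), the methods name females, and the labels give no transgene or deletion in any group. LPS, a component of bacterial cell walls, was inhaled as an aerosol of 0.5 mg/ml for 30 min, 3 times per week over 10 weeks, and control mice inhaled PBS on the same schedule. Lung cells were fixed in methanol and stained inside the cell for p16, an inhibitor of the cell cycle. CD45+ CD11c+ Siglec-F+ cells were then sorted by p16 into a positive and a negative fraction, with 5000 cells per sample. The 4 groups, PBS p16-negative, PBS p16-positive, LPS p16-negative and LPS p16-positive, held 4 libraries each. The labels call the samples pooled and do not tie a library to an animal, and the methods, which name young and old mice, do not say which age these libraries came from, so all errors here are spread between libraries, which may be technical.

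Bone morphogenetic proteins (BMPs) bind pairs of type I and type II receptor kinases on the cell surface. The active type I receptor phosphorylates receptor Smads, which join Smad4, enter the nucleus and switch on targets such as the Id genes, and inhibitory Smads made in the same response shut the signal down. The pathway patterns lung development and keeps blood vessels quiescent, where the receptor encoded by Acvrl1 is best known. Gata2 is not a BMP component but a zinc finger transcription factor of blood stem cells, mast cells, basophils and endothelium.

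The members lie on separate chromosomes of mouse build GRCm38. Acvrl1 spans chr15:101128522-101145336 on the plus strand, and an antisense gene, Gm16031, lies within it and is not in the table. Smad6 spans chr9:63953076-64022059 on the minus strand. Id1, a short gene, spans chr2:152736251-152737410 on the plus strand, and Gata2 spans chr6:88193891-88207032 on the plus strand. Reads were counted at transcript 3′ ends, so the start sites in use cannot be told from these counts.

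RefSeq promoter windows on GRCm38.p6, from 250 bases before to 50 bases after a start site, were at hand for 2 members, with 1 window for Smad6 and 2 for Gata2. They were searched on both strands for 2 letter strings bound by Smads, the palindrome GTCTAGAC and the GC-rich GGCGCC, and for 2 GATA strings, AGATAA and TGATAA. No string overlapped another. The Smad6 window, chr9:64022010-64022309, and the downstream Gata2 window, chr6:88198414-88198713, are shown because they hold the matches, in capitals.
Smad6: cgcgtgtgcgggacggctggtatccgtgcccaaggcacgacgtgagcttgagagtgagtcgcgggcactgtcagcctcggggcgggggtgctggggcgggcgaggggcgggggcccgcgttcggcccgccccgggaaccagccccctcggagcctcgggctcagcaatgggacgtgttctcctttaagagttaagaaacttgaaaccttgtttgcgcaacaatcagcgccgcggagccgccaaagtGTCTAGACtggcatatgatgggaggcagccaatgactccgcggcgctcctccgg
Gata2: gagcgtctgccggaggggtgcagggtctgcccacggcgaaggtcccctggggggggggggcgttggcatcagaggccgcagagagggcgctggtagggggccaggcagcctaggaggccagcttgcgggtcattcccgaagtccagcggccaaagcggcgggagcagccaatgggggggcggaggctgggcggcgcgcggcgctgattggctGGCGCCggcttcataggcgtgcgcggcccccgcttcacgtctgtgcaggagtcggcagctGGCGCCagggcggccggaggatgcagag
The palindrome in the Smad6 window begins at base 247, across the start site. It was present in 70 of 32851 promoter windows of this length (0.213%). The GC-rich string stands at bases 213 and 273 of the downstream Gata2 window, and 11.9% of all windows hold it. That Gata2 window is 73.7% G and C, beside a median of 52.7% over all windows. The share over all windows therefore does not show how often windows this rich hold the string. The upstream Gata2 window held none of the 4 strings. Neither GATA string, found in 11.2% and 9.05% of all windows, was in any of the 3, which are all richer in G and C than that median. These are letter matches and not binding sites.

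Library totals ran from 13861 to 1176358 unique molecular identifiers (UMIs, each counting 1 captured transcript). Both PBS replicate 1 libraries were shallow, at 15755 UMIs in the p16-negative and 13861 in the p16-positive fraction, and stood apart on the first principal component. A count of 3 UMIs, the limit a count of 0 allows, equals 190 and 216 CPM there (counts scaled to the library total), so single UMIs weigh heavily in them. Genes of secretory airway cells summed to 177785 and 268162 CPM in these 2 libraries, against 781 to 91881 CPM in the other 14, and they enter the totals behind each CPM. The macrophage label was checked against 23 alveolar macrophage genes, of which 22 were in the table. Marco, a scavenger receptor of these cells, was detected in 16 of 16 libraries, at 116 to 1618 CPM. Siglecf and Itgax, which encode 2 of the sort markers, were detected in 14 and 15, with 60 and 824 UMIs in all. Ptprc, which encodes the sort marker CD45, was detected in 14, with 74 UMIs. No gene of this list passed the edgeR test in either main comparison, where 9 (LPS) and 2 (p16) had an unadjusted p under 0.05. DESeq2 called 1 gene, Marco, after LPS, and voom called 0. With treatment and replicate number as a block edgeR called 2 between fractions, and without LPS p16-positive replicate 2 it called 2 after LPS. Between fractions 18 of the 22 were lower in p16-positive libraries (median log2 fold change -0.36, beside 0.08 for all tested genes), the direction opposite to the members. Their summed level was 9442 ± 2865 and 6701 ± 1836 CPM after PBS and 9212 ± 2376 and 8774 ± 3852 CPM after LPS (SD, n = 4; p16-negative first).

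Acvrl1 encodes ALK1, a type I receptor for circulating BMP ligands. It was the most abundant member, with 934 UMIs in all, and was found in every library. In replicate order its level was 381, 296, 205 and 281 CPM in PBS p16-negative libraries and 361, 991, 512 and 757 CPM in PBS p16-positive libraries. After LPS it was 158, 85.7, 78.1 and 79.6 CPM in p16-negative and 89.5, 197, 286 and 95.2 CPM in p16-positive libraries. The 3 deeper PBS p16-positive libraries were above all others, and within each fraction every LPS library was below every PBS library. The group means were 291 ± 72.3 and 655 ± 277 CPM after PBS, and 100.5 ± 38.8 and 167 ± 93.7 CPM after LPS (SD, n = 4; p16-negative first). In these bulk libraries fewer cells of a type and less RNA per cell cannot be told apart.

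Smad6, an inhibitory Smad that blocks type I BMP receptors and receptor Smads, was the rarest member. Its counts were 0, 4, 1 and 4 UMIs in PBS p16-negative and 1, 10, 10 and 30 UMIs in PBS p16-positive libraries. After LPS they were 1, 1, 0 and 1 UMIs in p16-negative and 2, 5, 0 and 5 UMIs in p16-positive libraries. Every PBS p16-positive library was above every LPS library, with a lowest level of 51.7 CPM against a highest of 17.0 CPM, while the other 3 groups overlapped. Group means were 23.0 ± 29.4 and 73.5 ± 20.5 CPM after PBS, and 4.88 ± 4.47 and 8.12 ± 7.52 CPM after LPS (SD, n = 4). The PBS p16-negative mean rested largely on replicate 2, at 65.8 CPM from 4 UMIs. Of its 75 UMIs, 68.0% fell in the PBS p16-positive libraries, which held 19.8% of all UMIs.

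Id1, a direct BMP target that binds basic helix-loop-helix factors and keeps them off DNA, had 63.5, 115, 102 and 71.3 CPM in PBS p16-negative libraries. In PBS p16-positive libraries it had 72.1, 152, 134 and 187 CPM. After LPS its levels were 29.7, 21.4, 0 and 24.9 CPM in the p16-negative and 22.4, 106, 25.3 and 27.2 CPM in the p16-positive fraction. Of the LPS libraries, p16-positive replicate 2 was alone in reaching the PBS range, and the other 7 were below all PBS libraries. Means were 88.0 ± 24.6 and 136 ± 48.0 CPM after PBS, and 19.0 ± 13.1 and 45.1 ± 40.3 CPM after LPS (SD, n = 4).

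Gata2, the transcription factor, had the largest log2 fold change between fractions among the 4 members, although Acvrl1 had the larger gap in CPM. It had 2, 0, 3 and 4 UMIs in PBS p16-negative libraries and 2, 17, 31 and 54 UMIs in PBS p16-positive libraries. After LPS its counts were 0, 1, 0 and 1 UMIs in the negative fraction and 3, 11, 3 and 10 UMIs in the positive one. The PBS p16-positive levels lay between 125 and 172 CPM, and LPS p16-positive levels, from 8.50 to 37.4 CPM, lay above all LPS p16-negative levels, which reached 7.14 CPM. Means were 42.6 ± 57.2 and 150 ± 20.5 CPM after PBS, and 2.41 ± 3.37 and 22.0 ± 12.4 CPM after LPS (SD, n = 4). The high PBS p16-negative value, 127 CPM, and the PBS p16-positive value of 144 CPM each came from 2 UMIs in a shallow replicate 1.

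**Figure D1:**
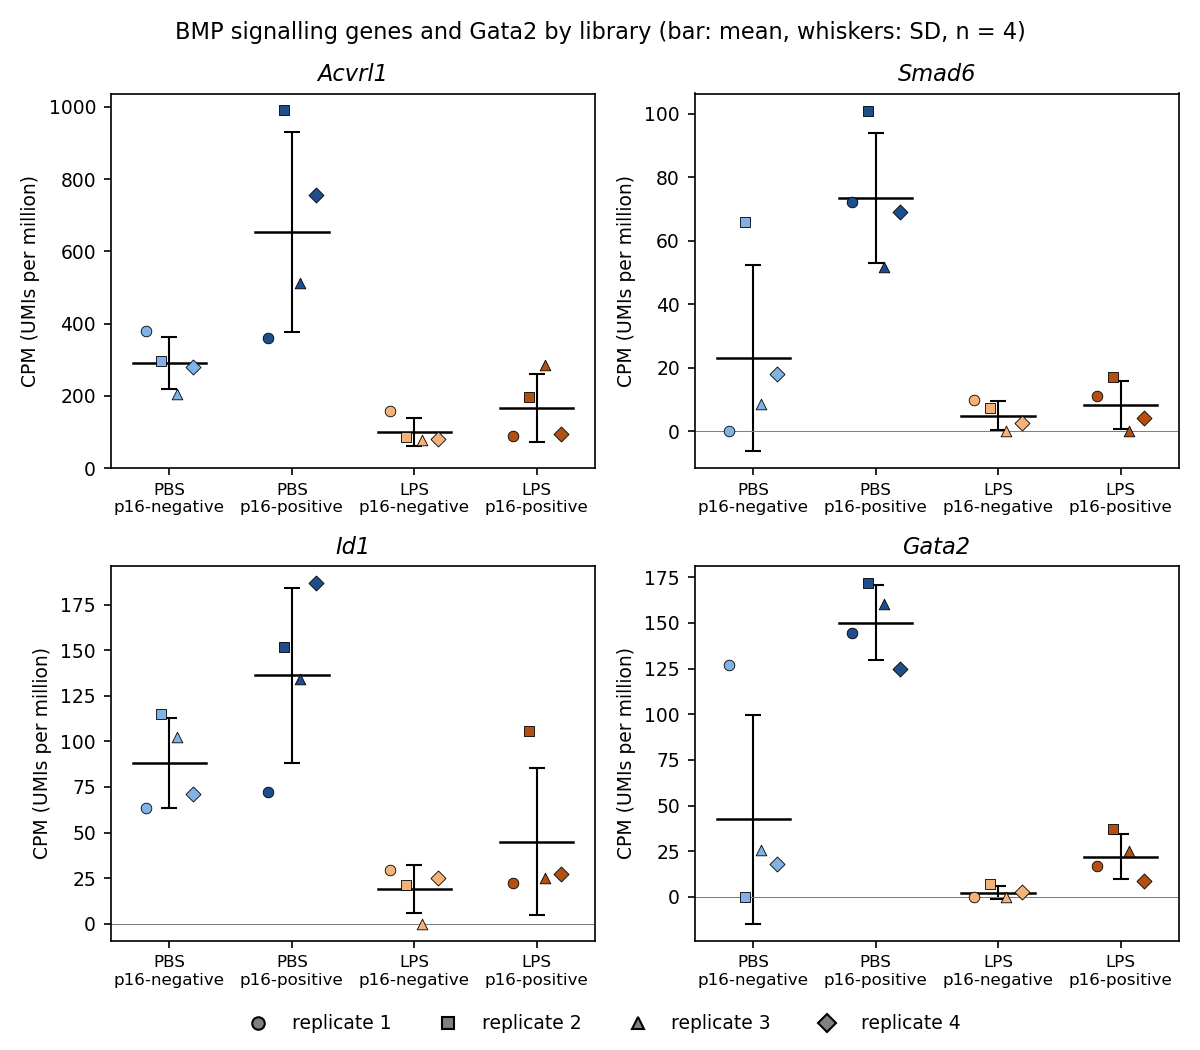
Level of Acvrl1, Smad6, Id1 and Gata2 in CPM (y axis, scaled per panel) in the 4 libraries of each group (x axis); horizontal bars are means, whiskers the SD, and marker shapes the replicate numbers. PBS p16-positive libraries have the highest mean in each panel (655, 73.5, 136 and 150 CPM) and LPS p16-negative libraries the lowest.

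By mean level all members had the same order of groups, with PBS p16-positive first, then PBS p16-negative, LPS p16-positive and LPS p16-negative. Neighbours in this order overlapped in every case but one, the Gata2 levels of the 2 LPS fractions. Without both PBS replicate 1 libraries, Gata2 had 14.5 ± 13.1 CPM (SD, n = 3) in the PBS p16-negative group, below its LPS p16-positive mean, and the order of the other members held. Between PBS and LPS within the p16-positive fraction, 3 members did not overlap (Acvrl1, Smad6 and Gata2), where 2.15% of the 6516 tested genes had every PBS library above every LPS library. Within the p16-negative fraction it was 2 members, Acvrl1 and Id1, against 1.41% of tested genes. Between fractions, 0 of 4 members were free of overlap after PBS, against 2.52% of tested genes, and 1 after LPS, Gata2, against 1.69%. Since these levels chose the members, nothing is read from those counts. Among same-numbered libraries, Gata2 was higher in the p16-positive fraction in 4 of 4 PBS and 4 of 4 LPS sets. For Acvrl1 this held in 3 of 4 and 3 of 4 sets.

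Over both fractions, the model with treatment and fraction as terms placed each member lower after LPS. The log2 fold changes were -1.53 for Acvrl1 (SE 0.34), -2.63 for Smad6 (SE 0.60), -1.66 for Id1 (SE 0.43) and -2.62 for Gata2 (SE 0.52). All 4 passed the adjusted threshold of 0.05, as did 0.491% of tested genes in this direction and 0.43% in the other. These calls and shares, and the calls kept or lost below, are printed for scale only, because the choice of members used this contrast. The call was unsteady for Id1, which was lost when any 1 of 13 libraries was left out, all but PBS p16-positive replicate 1, LPS p16-negative replicate 1 and LPS p16-positive replicate 2, with values between -2.22 and -1.51 over all 16. Smad6 lost the call without PBS p16-negative replicate 2 (-2.44), PBS p16-positive replicate 2 (-2.45) or replicate 4 (-2.64), or LPS p16-positive replicate 4 (-2.34). Acvrl1 lost it without PBS p16-positive replicate 2 (-1.36) or LPS p16-positive replicate 1 (-1.40), and Gata2 kept it throughout. The scaling moved the median of all tested genes from 0.14 (TMM, used here) to -0.08 (library totals), and the members were lower after LPS under each.

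The p16-positive fraction differed from the p16-negative by 0.99 for Acvrl1 (SE 0.34), 1.32 for Smad6 (SE 0.61) and 0.94 for Id1 (SE 0.43) on the log2 scale, none of which passed the threshold. With treatment and replicate number as a block, Acvrl1 did pass, at 0.93 (SE 0.24) over both treatments and 1.24 (SE 0.34) within PBS. Over both treatments that fit called 357 tested genes between fractions, against 92 in the main fit. No label shows that a number marks the same mice in both fractions. Gata2 was higher by 2.64 (SE 0.56) and passed the threshold in the main fit, 1 of 4 members where 1.41% of tested genes were called higher. The members were chosen from these levels, so their calls between fractions and this share are printed for scale only. Its call was lost without PBS p16-negative replicate 4 (2.54) or LPS p16-negative replicate 4 (2.59). The Gata2 difference between fractions was 2.54 (SE 0.72) within PBS and 2.85 (SE 0.95) within LPS libraries. The LPS differences of the 2 fractions differed by -0.54 for Acvrl1 (SE 0.69) and -0.54 for Smad6 (SE 1.60). They differed by 0.65 for Id1 (SE 0.87) and 0.31 for Gata2 (SE 0.83). Each was smaller than its SE, but the SE was computed from the difference and its F statistic. That comparison therefore restates the fit and is no separate measure of spread.

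**Figure D2:**
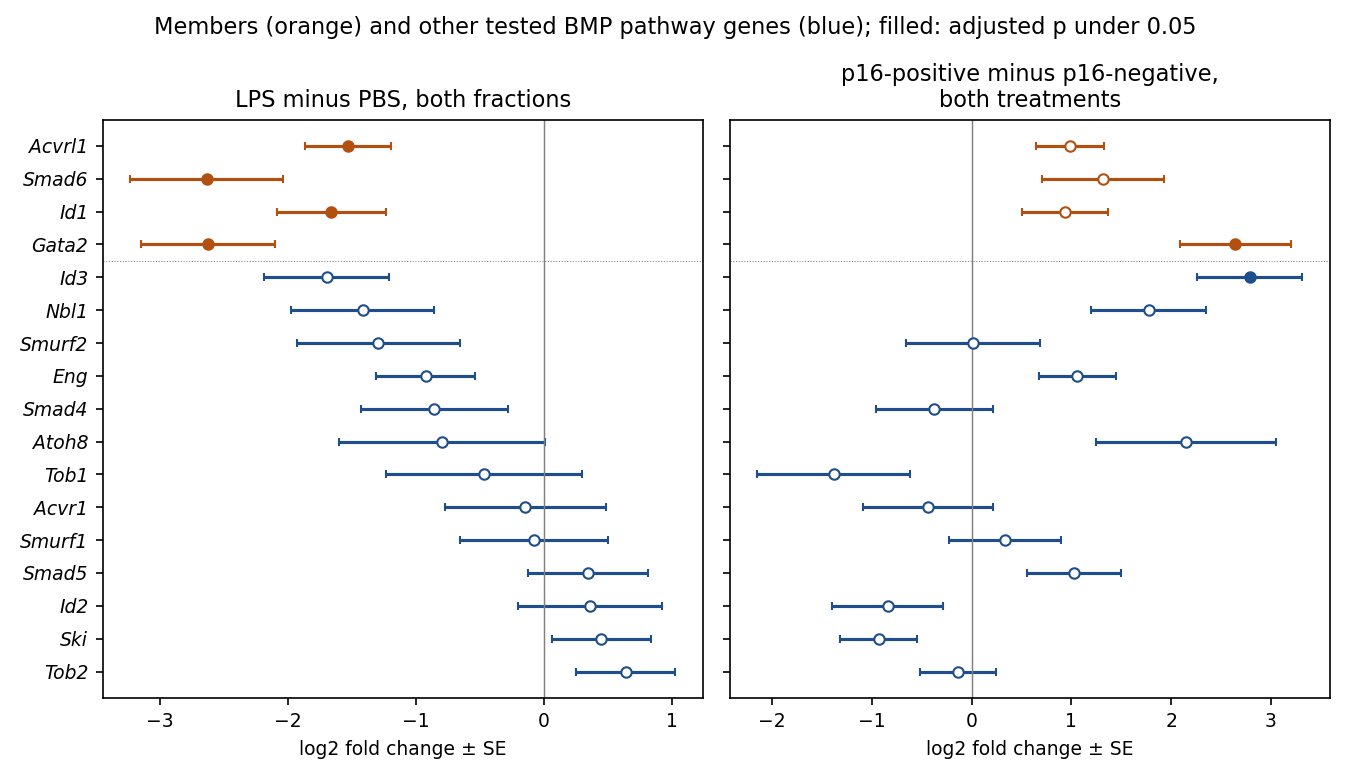
Log2 fold change with its SE (x axis) for the 4 members (orange) and 13 other tested BMP pathway genes (blue), LPS minus PBS on the left and p16-positive minus p16-negative on the right; filled points passed an adjusted p of 0.05. The members lie between -2.63 and -1.53 on the left, and Id3 is the filled blue point on the right, at 2.79.

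The rest of the pathway was read from a list of 59 further BMP genes (ligands, receptors, antagonists, Smads, regulators and targets). Of these 20 were in the table and 13 had enough UMIs to be tested. After LPS 9 of the 13 were lower and 4 higher, with a median log2 fold change of -0.47 beside 0.14 for all tested genes. None passed the edgeR test, 4 had an unadjusted p under 0.05, and Id3 was called by DESeq2 and by limma voom. In the p16 comparison 7 were higher and 6 lower (median 0.02, beside 0.08 for all tested genes), and 1 was called, with 6 at an unadjusted p under 0.05. With a replicate block by treatment and number 3 were called between fractions, Id3, Eng at 1.12 (SE 0.26) and Nbl1 at 1.51 (SE 0.42). Over all tested genes that fit called 357, against 92 without the block.

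The gene called in the main fit was Id3, a BMP target of the same family as Id1 that lies on chromosome 4. Its counts were 0, 3, 2 and 3 UMIs in PBS p16-negative and 2, 21, 29 and 77 UMIs in PBS p16-positive libraries, and 2, 1, 0 and 2 against 3, 28, 4 and 21 UMIs after LPS. The lowest PBS p16-positive level, 144 CPM, was above the highest of the other 12 libraries, 95.3 CPM in LPS p16-positive replicate 2. Id3 was higher in the p16-positive fraction by 2.79 (SE 0.53, edgeR adjusted p = 0.0116), with 8 libraries per fraction. Leaving out LPS p16-negative replicate 4 gave 2.71 and an edgeR adjusted p of 0.0607, and with any other library left out it stayed called. After LPS the Id3 difference was -1.70 (SE 0.49, edgeR adjusted p = 0.093), which did not pass, and without LPS p16-positive replicate 2 it was -2.44 and passed (edgeR adjusted p = 0.00283).

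Among the other pathway genes, the BMP co-receptor endoglin (Eng) had 151 ± 75.0 and 423 ± 193 CPM in the PBS p16-negative and p16-positive groups, and 93.7 ± 70.9 and 139 ± 68.2 CPM after LPS (SD, n = 4). Its differences, -0.92 after LPS (SE 0.39) and 1.06 between fractions (SE 0.39), did not pass the threshold. The secreted BMP antagonist Nbl1 had differences of -1.42 (SE 0.56) and 1.77 (SE 0.58), also short of it. Both were called between fractions with the replicate block, and Nbl1 also on removal of 1 library: after LPS without LPS p16-positive replicate 2 (-2.33), and between fractions without replicate 4 of that group (1.97). The Smad corepressor Ski had 0.45 (SE 0.39) after LPS and -0.93 (SE 0.39) between fractions, and Tob2, of an antiproliferative family, 0.64 (SE 0.39) and -0.13 (SE 0.38), and neither passed. Eng, Ski and Tob2 were the most abundant tested genes of the list beside Id3, and the pathway genes named next, with Nbl1, were added after their values were seen. Smad5, which carries the signal from type I receptors, differed by 0.35 (SE 0.47) after LPS and 1.03 (SE 0.47) between fractions, and Smad4, the partner shared with the TGF-beta branch, by -0.85 (SE 0.58) and -0.38 (SE 0.59). Acvr1, another type I receptor gene, had 30 UMIs in all, and differed by -0.14 (SE 0.63) and -0.44 (SE 0.65). Id2, the third Id gene of the table, had differences of 0.36 (SE 0.56) and -0.84 (SE 0.56), whose signs were opposite to those of Id1 and Id3. Smad5, Smad4, Acvr1 and Id2 did not pass the threshold. The only ligand genes of the list in the table were Bmp4, with 20 UMIs in all, and Bmp6, with 16, both too few to be tested.

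**Figure D3:**
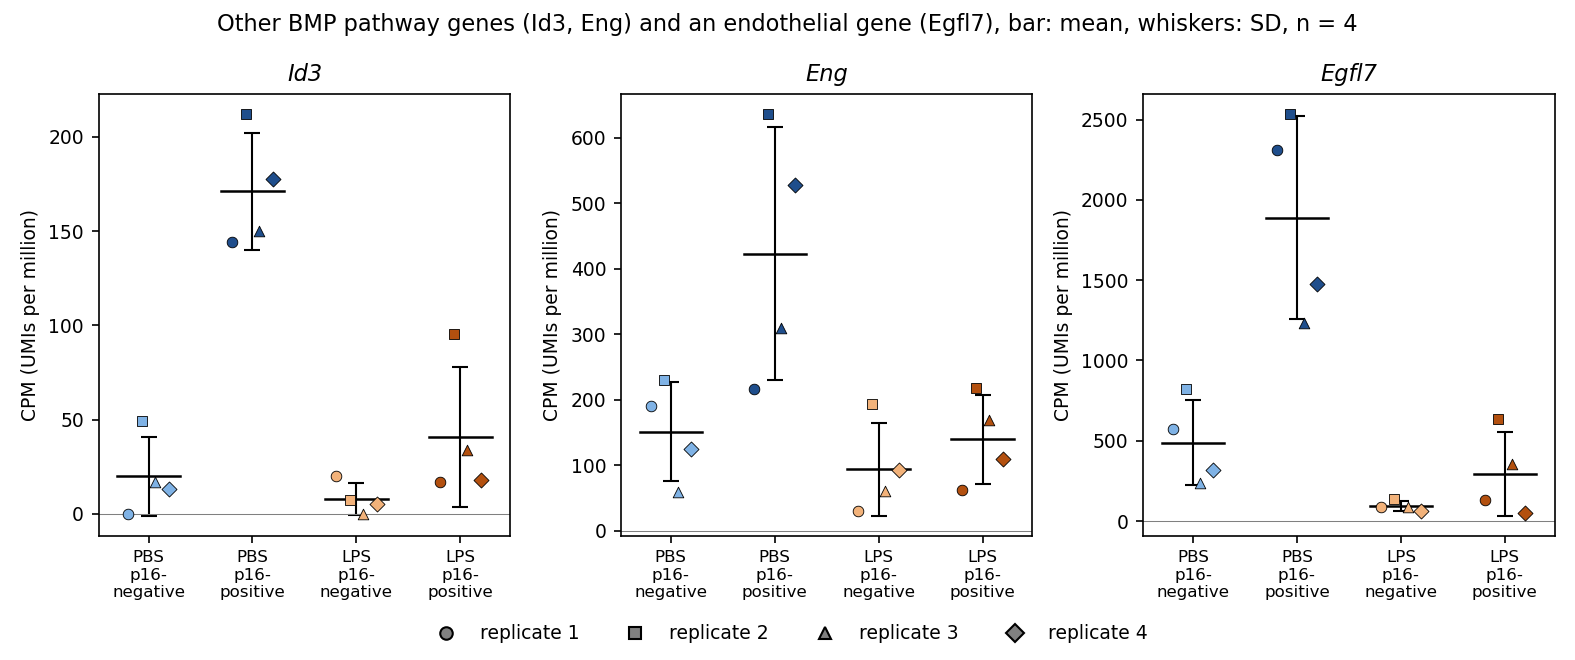
Level in CPM (y axis) of Id3, Eng and the endothelial gene Egfl7 in each library by group (x axis), drawn as for the members. Mean levels in the PBS p16-positive group, 171, 423 and 1889 CPM, exceed those of the other groups.

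The TGF-beta and activin branch, which signals through other receptor Smads, was read from 32 genes, of which 12 were tested. None was called by edgeR after LPS (7 higher, 5 lower, median 0.09, 2 with an unadjusted p under 0.05) or between fractions (7 higher, 5 lower, median 0.20, again 2). DESeq2 and voom each called 1 after LPS, Lrrc32, which tethers latent TGF-beta to the cell surface, and none between fractions. With the replicate block by treatment and number Ltbp4, which encodes a latent TGF-beta binding protein, was called between fractions, at 1.60 (SE 0.42), as it was without LPS p16-positive replicate 4 (1.88). Without replicate 2 of that group edgeR called Lrrc32 after LPS (-2.69). The ligand gene Tgfb1 had 1429 ± 366 and 948 ± 386 CPM after PBS and 1521 ± 413 and 1047 ± 447 CPM after LPS (SD, n = 4). In the PBS p16-positive group the Tgfb1 mean was above that of Acvrl1, 655 ± 277 CPM, and their SD ranges overlapped. The Tgfb1 differences were 0.36 (SE 0.35) and -0.62 (SE 0.35). The matrix protein gene Tgfbi differed by 0.13 (SE 0.32) and -0.38 (SE 0.32), the TGF-beta activation gene Nrros by -0.35 (SE 0.41) and 0.17 (SE 0.41), and the activin receptor gene Acvr1b by 0.06 (SE 0.39) and -0.13 (SE 0.38).

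Of 18 GATA factors and partner genes besides Gata2, 10 were in the table and 9 were tested, and no other GATA factor was in the table. None was called by edgeR, DESeq2 or voom in either comparison, and 0 had an unadjusted p under 0.05 in edgeR. After LPS 6 were higher and 3 lower (median 0.18), and between fractions 3 were higher and 6 lower (median -0.10). The most abundant were Cebpa and Spi1, master factors of myeloid cells, at 0.18 (SE 0.34) and 0.24 (SE 0.37) after LPS and -0.40 (SE 0.34) and -0.10 (SE 0.37) between fractions. The adaptor gene Ldb1 had 0.15 (SE 0.38) and 0.70 (SE 0.38), and the helix-loop-helix gene Lyl1 0.22 (SE 0.30) and -0.21 (SE 0.30).

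Gata2 is also a defining gene of basophils and mast cells. Of 15 genes listed for these cells 3 were in the table and 2 tested, and the basophil protease gene Mcpt8 and the Fc receptor genes Ms4a2 and Fcer1a were among those absent from the table. Hdc, which encodes the enzyme that makes histamine, was higher in the p16-positive fraction by 2.24 (SE 0.59, edgeR adjusted p = 0.0429), but DESeq2 and voom did not call it. The call was also lost, with values of 1.48 to 2.33 and edgeR adjusted p of 0.0649 to 0.256, when any 1 of 8 libraries was left out: PBS p16-negative replicates 3 and 4, PBS p16-positive replicates 1 and 2, LPS p16-negative replicates 2, 3 and 4, and LPS p16-positive replicate 2. Itga2b, an integrin gene, differed by 1.96 (SE 0.67) between fractions and -1.27 (SE 0.63) after LPS, both short of the threshold. Neither was called after LPS by edgeR, DESeq2 or voom, with 0 at an unadjusted p under 0.05 in edgeR. None of 8 eosinophil genes was in the table.

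Endothelial genes moved with the members. Endothelial cells lack CD45 and lie outside the sort gate. Of 35 endothelial marker genes 25 were in the table and 21 tested. After LPS 19 of the 21 were lower (median -1.91) and 8 were called lower, while 2 were higher. Between fractions 18 were higher (median 1.38) and 4 were called higher. The called genes include Egfl7, a secreted angiogenic factor (-2.16, SE 0.41, after LPS and 1.76, SE 0.41, between fractions), and Gpihbp1, the capillary anchor of lipoprotein lipase (-2.31, SE 0.45 and 1.93, SE 0.46). Tie1, an orphan endothelial receptor kinase, differed by -2.34 (SE 0.53) after LPS and Ramp2, part of the adrenomedullin receptor, by -2.21 (SE 0.49). The water channel gene Aqp1 was higher between fractions by 1.96 (SE 0.44) and the endothelial adhesion gene Esam by 1.90 (SE 0.47). Icam2, a ligand for leukocyte integrins, fell by 2.10 on the log2 scale after LPS (SE 0.48). The tight junction gene Cldn5 fell by 1.91 on the log2 scale after LPS (SE 0.48), and Flt1, a VEGF receptor gene, had 0.39 (SE 0.34) after LPS and -0.19 (SE 0.34) between fractions, short of the threshold. Car4, which both capillary cells and alveolar macrophages express, had 0.87 (SE 0.40) and -0.62 (SE 0.40). The counts of calls rested on single libraries. The 8 calls after LPS became 4 on removal of replicate 2 of either PBS fraction, of LPS p16-negative replicate 4 or of replicate 1 of the LPS p16-positive group. They became 3 on removal of LPS p16-positive replicate 4 and 2 on removal of PBS p16-positive replicate 4. The 4 calls between fractions became 0 on removal of PBS p16-negative replicate 3 or 4, of replicate 2 of either p16-positive group or of LPS p16-negative replicate 4. They became 1 on removal of LPS p16-negative replicate 3 and 7 on removal of LPS p16-positive replicate 4.

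A sum over the 21 endothelial genes of the table that stand on no other list gave their level per library, a choice made after the values were seen. It left out Car4, also an alveolar macrophage gene, with Cav1, Eng and Erg. The sum ran from 1730 to 6093 CPM in PBS p16-negative, 7214 to 14040 in PBS p16-positive, 1040 to 1672 in LPS p16-negative and 1077 to 3979 CPM in LPS p16-positive libraries. Between 14 and 21 of its genes were detected per library. The defining genes Pecam1 and Cdh5 were detected in 16 and 14 libraries, whereas Tek, Emcn and Sox17 were not in the table. The part of endothelial RNA in the members' differences was not tested.

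Over the 16 libraries, Spearman's rho with this sum was 0.91 for Acvrl1, 0.80 for Gata2, 0.77 for Id1 and 0.67 for Smad6. Within the 8 PBS libraries it was 0.86, 0.79, 0.48 and 0.81, and within the 8 LPS libraries 0.52, 0.68, 0.12 and 0.30, in the same gene order. The full endothelial list, with Car4, Cav1, Eng and Erg, was set against TMM-scaled log2 CPM of the members in place of their CPM. It gave lower values over the 16 libraries, of 0.76, 0.70, 0.64 and 0.54. On that list the rho within PBS was 0.40, 0.74, 0.29 and 0.64 and within LPS 0.64, 0.26, 0 and -0.19. The relation within a treatment thus changed with the genes summed and the scaling together, and their parts were not told apart. Points share groups, replicate numbers and library depth, so these are descriptions. Counted against the endothelial genes in place of all UMIs, Acvrl1 had 8.82 ± 3.28 and 6.68 ± 2.18 UMIs per 100 endothelial UMIs after PBS and 8.02 ± 3.62 and 7.02 ± 1.74 after LPS (SD, n = 4; p16-negative first). The 4 groups overlapped on this scale. Gata2 had 1.07 ± 0.90 and 1.60 ± 0.43 after PBS and 0.17 ± 0.21 and 0.90 ± 0.21 after LPS. On this scale its LPS p16-negative libraries, at 0 to 0.43, lay below all LPS p16-positive ones, at 0.71 to 1.18, and these lay below all PBS p16-positive ones, at 1.22 to 2.22, while PBS p16-negative libraries, at 0 to 2.08, overlapped the other groups. Id1 had 3.02 ± 2.08 and 1.47 ± 0.68 after PBS and 1.54 ± 1.16 and 1.86 ± 0.91 after LPS, and Smad6 between 0.37 and 0.75 on average, with overlap in each.

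**Figure D4:**
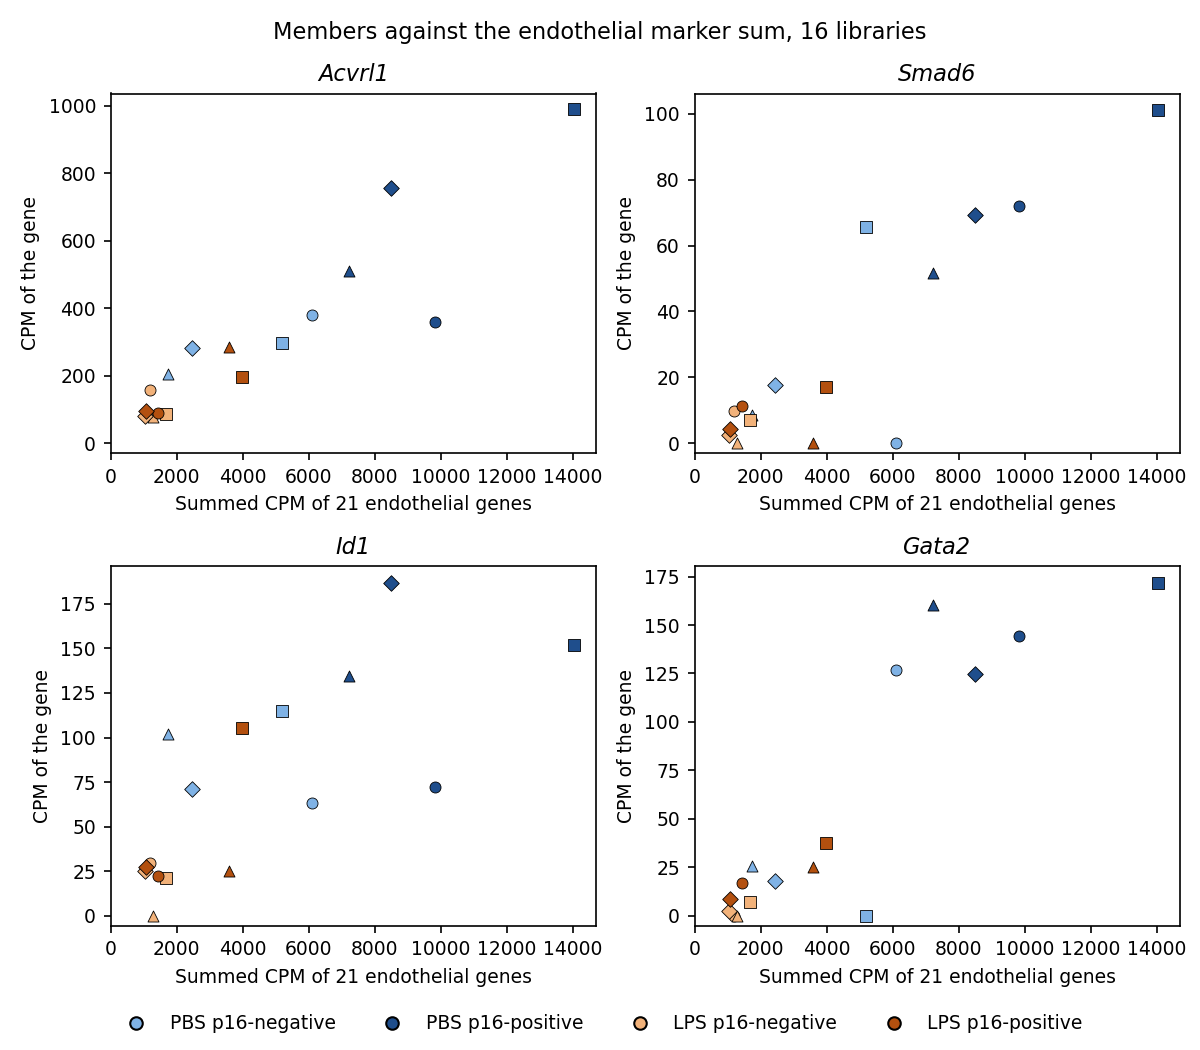
Level of each member in CPM (y axis) against the summed CPM of 21 endothelial genes (x axis) in 16 libraries, coloured by group, with marker shapes for the replicate numbers as in the plot of members by library. PBS p16-positive libraries lie to the right, with sums of 7214 to 14040 CPM, and LPS p16-negative libraries to the lower left. In height single PBS p16-positive libraries overlap PBS p16-negative ones in each panel.

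Markers of other cell types moved as well, and their part in the members' differences was not tested. All 3 fibroblast genes tested, of 10 listed, were called lower after LPS (median -2.92), with summed levels of 119 to 1523 and 972 to 3780 CPM after PBS against 44.8 to 178 and 47.6 to 494 CPM after LPS. Of 9 tested monocyte and interstitial macrophage genes, 8 were higher after LPS and 3 of these were called. With single libraries left out 2 to 5 were called, the 5 on removal of replicate 2 of LPS p16-positive, and voom called 2. Alveolar type II genes summed to 4107 to 26441 and 12914 to 49833 CPM after PBS and 2048 to 24336 and 1367 to 11958 CPM after LPS (p16-negative first), and 0 of 10 tested were called by edgeR in either comparison, with 1 after LPS and 2 between fractions at an unadjusted p under 0.05. Alveolar type I genes were lower after LPS in 5 of 6 tested cases (median -1.29) and higher in the p16-positive fraction in 5 of 6 (median 0.99), with mean sums of 397 and 1280 CPM after PBS and 271 and 323 CPM after LPS. Smooth muscle and pericyte genes were lower after LPS in 4 of 5 (median -0.76) and higher in the p16-positive fraction in 4 of 5 (median 1.63), with mean sums of 78.3 and 244 CPM after PBS and 136 and 167 CPM after LPS. In both lists edgeR called 0 in either comparison, with 2 at an unadjusted p under 0.05 after LPS in each, and 2 and 3 between fractions. DESeq2 and voom called 0 type I genes, and 1 and 2 smooth muscle and pericyte genes after LPS.

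Secretory airway genes were higher in the p16-positive fraction in 8 of 9 tested cases, and outside both PBS replicate 1 libraries their sum was highest, 91881 CPM, in LPS p16-positive replicate 2. Neutrophil genes were lower after LPS in 7 of 8 tested cases (median -0.90) and higher in the p16-positive fraction in 7 of 8 (median 0.85). Ciliated airway genes were higher in the p16-positive fraction in 9 of 9 tested cases, and their sum was highest, 6216 CPM, in LPS p16-positive replicate 2, the LPS library with the most Smad6, Id1, Gata2 and Id3 (in CPM). Between fractions edgeR called 3 secretory, 1 neutrophil and 4 ciliated genes. On removal of replicate 4 of LPS p16-negative it called 0 in each of these lists, and on removal of replicate 2 of LPS p16-positive 0, 0 and 2, in the same order. On removal of replicate 2 of PBS p16-positive the secretory and neutrophil calls were lost too, and the neutrophil call was lost on removal of 9 of the 16 libraries. Between fractions voom called 0 secretory, 0 neutrophil and 1 ciliated gene.

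The levels of the members were related to different degrees. Spearman's rho was taken on TMM-scaled log2 CPM, whose ranks can differ from those of the CPM printed above. Over 16 libraries it was 0.85 for Acvrl1 and Id1, 0.78 for Smad6 and Id1 and 0.69 for Acvrl1 and Gata2. It was 0.67 for Id1 and Gata2, 0.57 for Acvrl1 and Smad6, and lowest, 0.42, for Smad6 and Gata2. Within the 8 LPS libraries, where counts are low, the same pairs had 0.71, 0.52, 0.45, 0.48, 0.17 and 0.24. Smad6 and Gata2 had -0.27 within the 8 p16-negative and 0.90 within the 8 p16-positive libraries. Among 4654 tested genes with a mean of at least 20 CPM, those whose pattern was most like the mean of the 4 standardised members were Egfl7 (rho 0.94), Cuedc1 (0.91), Ccnd1 (0.91), Klf2 (0.90), Esam (0.89), Pecam1 (0.89), Aqp1 (0.88), Ehd2 (0.88), Ramp2 (0.88) and S100a16 (0.88). Of the 10, 5 are on the endothelial list, and 6 were again among the 10 when both PBS replicate 1 libraries were left out. For Acvrl1 alone the nearest genes were Esam, Pecam1 and Klf2 (0.89, 0.89 and 0.89), for Smad6 Mettl7a1, Tppp3 and Prpf40b (0.87, 0.85 and 0.84), for Id1 Jun, Icam2 and Ccnd1 (0.88, 0.87 and 0.86), and for Gata2 Impdh1, Tbx3 and Rasip1 (0.91, 0.89 and 0.82). Without the shallow libraries only Icam2 kept its place in these sets of 3.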

How the data were processed

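The authors sequenced transcript 3′ ends by bulk MARS-seq and counted UMIs with the UTAP pipeline, keeping uniquely mapped reads at 3′ ends of RefSeq genes (mm10). Versions and strand use are not given in the sources used here. Deposited counts, 1 column per library, were the input of every value here. The authors also deposited normalized signal (counts divided by DESeq2 size factors) and regularized log2 values, which were not used, and fold changes and p-values of group pairs, which were neither used nor printed. Listed genes have at least 6 UMIs in 1 library, so totals cover listed genes.

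Genes with 30 or more UMIs in all (6516) were tested in edgeR 4.0.16 (R 4.3.3) by quasi-likelihood F tests on all 16 libraries, with TMM scaling, treatment and fraction as additive terms (group means for differences within a stratum) and Benjamini-Hochberg adjustment at 0.05. Each edgeR SE is the size of the log2 fold change divided by the square root of its F statistic, and is approximate. DESeq2 1.42.0 and limma 3.58.1 (voom with quality weights) were alternatives. On simulated data edgeR called 186 of 200 changed genes. The changed genes had at least 200 UMIs in all and large set fold changes, with the same spread for every gene. Smad6 and Gata2, with 75 and 142 UMIs, lie below that limit, so this share does not carry over to them. CPM use library totals. Likeness, the rho among members and the rho of members with the full endothelial list used TMM-scaled log2 CPM with a prior count of 2. The rho of members with the sum of 21 endothelial genes used CPM. Named list genes are those called in either main comparison (up to 6 by lowest p) and the 4 most abundant tested genes of each list, and other names were added after seeing values. The members and lists were chosen with earlier results of these data known.

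Same-numbered PBS fractions deviated together in 4 of 4 pairs (correlations 0.21 to 0.47), and the LPS fractions in 3 of 4 (0.04 to 0.71). Pairs across treatments did so in 12 of 16 (-0.11 to 0.42). Libraries across treatments come from different mice, so this check cannot show that a number marks the same mice. Fits with a replicate block are therefore alternatives only.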

Additional observations from a re-analysis of the deposited data

Results flagged for a closer look

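In 3 of 36 groups of 4 libraries checked, 1 library lay apart from the other 3, by Dixon's 95% limit on its gap relative to the group's range. Chance flags about 1 in 20 groups. Acvrl1 reached 158 CPM in LPS p16-negative replicate 1, where the other 3 libraries of the group lay between 78.1 and 85.7 CPM. Id1 reached 106 CPM in LPS p16-positive replicate 2, against 22.4 to 27.2 CPM in the others. The full endothelial list summed to 15910 CPM in PBS p16-positive replicate 2.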

How the results depend on the processing

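The members stayed lower after LPS and higher in the p16-positive fraction under every alternative run: RLE factors, library totals, DESeq2, voom, no low count filter, filterByExpr, the replicate block, both PBS replicate 1 libraries left out, and each library left out. The difference between fractions in the LPS effect was small and changed sign for Gata2, to -0.76 under voom and -0.25 without both PBS replicate 1 libraries, with -0.37 to 0.92 over single libraries left out, and for Id1 over the same, -0.29 to 0.86; the cause was not tested. Depth limits Smad6 and Gata2 most, at 0 to 1 UMIs in LPS p16-negative libraries.

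Genes called after LPS numbered 60 (28 higher, 32 lower), 137 with DESeq2, 127 with voom, 20 higher and 48 lower with library totals, 242 with the replicate block by number, and 29 to 195 with single libraries left out (38 and 29 on removal of replicate 2 or 4 of PBS p16-positive, 195 and 32 on removal of replicate 2 or 4 of LPS p16-positive). Between fractions they numbered 92, 9 with voom, 157 without a filter, 21 with filterByExpr, 260 and 357 with the replicate block by number and by treatment and number, 43 without both PBS replicate 1 libraries, and 0 to 284 with single libraries left out (61, 33 and 0 on removal of replicate 2, 3 or 4 of LPS p16-negative, 39 and 24 for replicate 3 or 4 of PBS p16-negative, 24 for replicate 2 of PBS p16-positive, 8, 147 and 284 for replicate 2, 3 or 4 of LPS p16-positive). With fewer or more genes tested the adjustment changes by construction; otherwise the cause was not tested. Called BMP list genes after LPS numbered 1 with library totals, DESeq2 and voom, 2 with the replicate block and 0 to 2 with single libraries left out, and between fractions 3 with either replicate block and 0 to 2. In the TGF-beta list 1 was called after LPS with DESeq2, voom or the replicate block (0 to 1 with single libraries out), and 1 between fractions with either replicate block (0 to 1). In the GATA list 1 was called after LPS without a filter. The endothelial count after LPS was 13 with the replicate block, 5 without both PBS replicate 1 libraries and 2 to 11 with single libraries out, and between fractions 1 with voom, 2 with filterByExpr, 10 with either replicate block and 0 to 7. The basophil and mast cell count between fractions was 0 with RLE factors, library totals, DESeq2, voom, filterByExpr or both PBS replicate 1 libraries out, 2 with the block by treatment and number, and 0 to 2 with single libraries out, and after LPS 0 to 1. Within PBS the replicate block by treatment and number gave 1.24 for Acvrl1 and 2.59 for Gata2, both then called. Over both treatments it gave 0.93 for Acvrl1, also called. In the fit without a block Acvrl1 was called on removal of LPS p16-positive replicate 4 (1.15). The members were chosen from their levels, so these calls are printed for scale only. The 10 genes most like the members shared 6 with those found without both PBS replicate 1 libraries.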
